A study of Mus musculus with 16 samples.

Results

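The transcripts of oxygen sensing followed here in mouse quadriceps were the HIF (hypoxia-inducible factor) subunits Hif1a, Epas1 and Arnt, the prolyl hydroxylases Egln1, Egln2 and Egln3, the ubiquitin ligase subunit Vhl, the asparaginyl hydroxylase Hif1an, the HIF competitor Cited2 and the hypoxia- and stress-responsive mTORC1 inhibitor Ddit4. They were taken by gene symbol from the deposited expression table, 10 of 23970 symbols, and all 10 were among the 11256 genes tested. Each group held 4 libraries, 16 in all, from quadriceps of different C57BL/6NTac male mice aged 16 weeks. CON-pre and HFD-pre were mice on control or high-fat diet that were habituated to the treadmill and fasted but did not run the test, whereas CON-post and HFD-post were sampled 3 h after a run to exhaustion on the same diets. All mice were of wild type genotype, and their food was withheld before sampling in all 4 groups, with the exercised mice kept without food until muscle was taken.

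HIF is a dimer of an oxygen-regulated alpha subunit (HIF-1α from Hif1a, HIF-2α from Epas1) and the constitutive subunit ARNT. When oxygen is available, the prolyl hydroxylases (PHD1 from Egln2, PHD2 from Egln1 and PHD3 from Egln3) mark the alpha subunits, the VHL ubiquitin ligase complex recognises the mark and the subunits are degraded, while FIH from Hif1an hydroxylates an asparagine and blocks the binding of the co-activators p300 and CBP. CITED2 competes with HIF for the same co-activators, and Egln3, Cited2 and Ddit4 are themselves textbook HIF targets. Since the alpha subunits are controlled mainly as proteins, transcript levels are not a measure of HIF activity, and protein and muscle oxygen are not analysed here.

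Expression was given as FPKM, counts of fragments divided by transcript length and by the mapped total. Differences between groups came from a limma fit of log2(FPKM + 0.5) over all 16 libraries, with Benjamini-Hochberg adjustment over the 11256 genes, and a gene was called at an adjusted p under 0.05. Differences are log2 fold changes on that scale, which understates the change of low genes. Summed FPKM ranged from 283575 to 329282 over the libraries, the relative depth read from low genes was between 0.706 and 1.12, and libraries correlated at between 0.966 and 0.984 across genes. The deposited values hold no read totals per library, so no counting interval is given. Myofibre markers were abundant, with Ckm, the muscle creatine kinase, at a mean of 13744 FPKM in CON-pre and 11180 FPKM in HFD-post. In whole muscle, fewer cells of a type and less RNA per cell cannot be told apart.

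The members spanned a wide range of levels per length. Egln1 was the most abundant at 67.0 FPKM over the 16 libraries, above 95.6% of the genes tested, and Vhl the least at 1.70 FPKM, above 24.2% of them. Between them came Hif1an at 40.7, Egln2 at 31.0, Epas1 at 28.7, Cited2 at 16.0, Arnt at 11.2, Egln3 at 8.71, Ddit4 at 7.48 and Hif1a at 4.30 FPKM. Only Egln1 over Hif1an and Hif1a over Vhl were neighbours in this order whose 16 values did not overlap, although Hif1an exceeded Egln2, and Epas1 exceeded Cited2, within each of the 16 libraries. Among the alpha subunits, quadriceps therefore held more Epas1 than Hif1a transcript per length in every library.

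Mice of the same group differed little in some members and greatly in others. The within-group SD of log2(FPKM + 0.5) was 0.09 for Egln1 and between 0.10 and 0.11 for Egln2, Hif1an, Epas1 and Arnt, lower than the median of 0.18 over all genes. It was 0.32 for Egln3, 0.27 for Cited2, 0.26 for Vhl and 0.19 for Hif1a. Ddit4 had an SD of 0.93, higher than 99.2% of the genes tested.

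**Figure D1:**
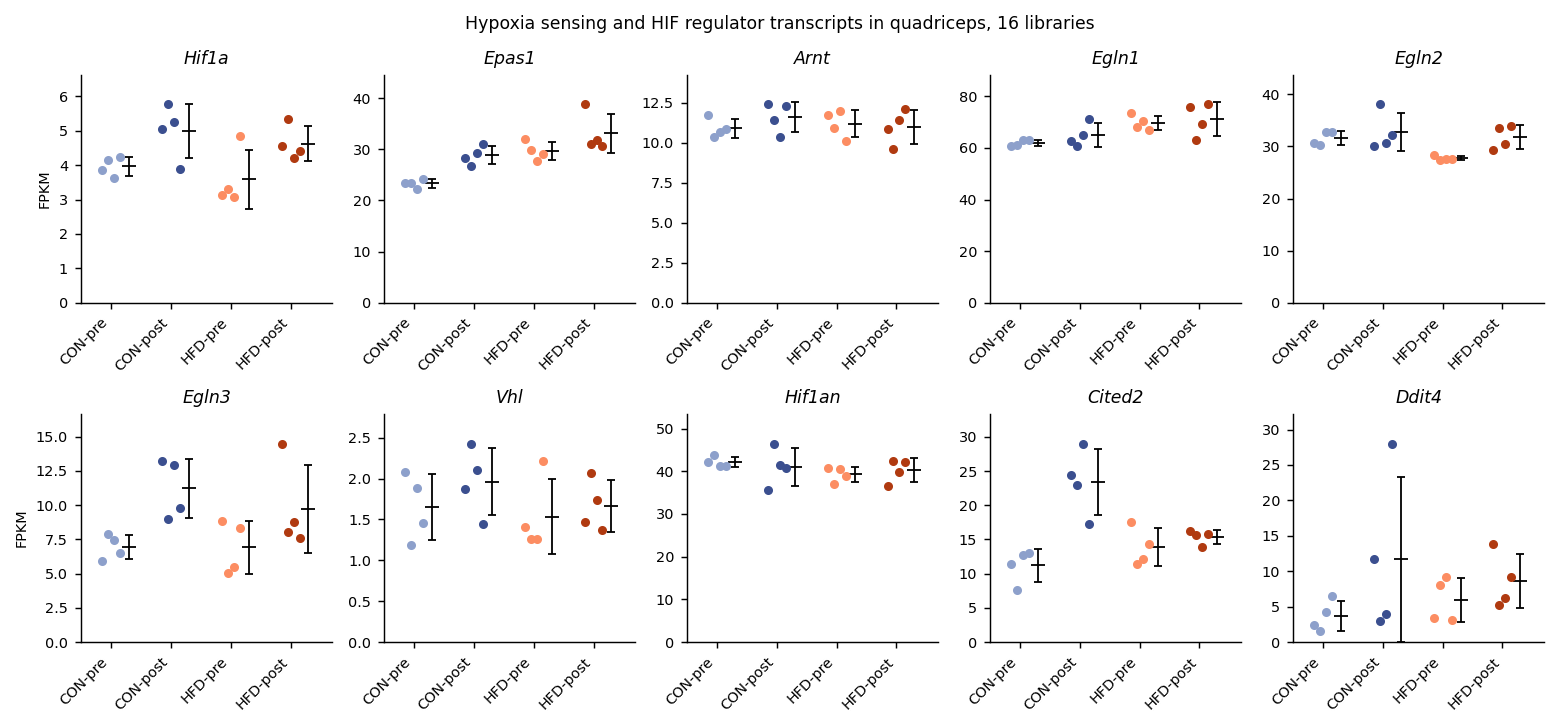
FPKM of each of the 10 transcripts in the 16 quadriceps libraries (points, 1 mouse each; 4 per group), with the group mean and SD as a bar on the right of each group. Cited2 was high in CON-post (17.2 to 29.0 FPKM), Epas1 was lowest in CON-pre (22.2 to 24.2 FPKM), and Ddit4 ranged widely within every group.

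Exercise on the control diet was accompanied by a 2.05-fold rise of Cited2, which inhibits HIF, and by no other called difference among the members. Of the 10 members, 1 was called between CON-post and CON-pre (1.11% of all genes were called), 4 had an unadjusted p under 0.05 (11.1% of all genes), and 3 had values that did not overlap between the groups (5.82% of all genes), all of them higher after exercise. These were Cited2, Egln3 and Epas1. On this diet 9 of 10 members had a log2 fold change above 0, with a median of 0.24, where the median over all genes was -0.01.

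Cited2 lies on chromosome 10 from 17723228 to 17725674 in RefSeq GRCm38.p6. Its FPKM was 11.4, 7.67, 12.7 and 13.0 in CON-pre and 24.4, 23.0, 29.0 and 17.2 in CON-post, so the lowest exercised mouse on CON exceeded the highest resting one. It was 17.6, 11.4, 12.1 and 14.3 in HFD-pre and 16.2, 15.6, 13.9 and 15.7 in HFD-post, where the groups overlapped. On CON the log2 fold change was 1.03 (standard error 0.17, 2.05-fold, limma adjusted p = 0.00398), and on HFD it was 0.16 (standard error 0.17, adjusted p = 0.763). The 4 HFD-post values all lay below the 4 CON-post values, with a log2 fold change of -0.57 (standard error 0.17, unadjusted p = 0.00432, adjusted p = 0.355).

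The difference of the Cited2 responses between the diets was tested directly as the interaction of diet and exercise. It was -0.87 on the log2 scale (standard error 0.24, unadjusted p = 0.00239), and its limma adjusted p was 0.9999. No gene was called for the interaction (0% of 11256 by limma, against 356 genes or 3.16% at an unadjusted p under 0.05), so a smaller Cited2 response on HFD did not pass the adjustment over all genes. Averaged over both diets, Cited2 rose by 0.60 on the log2 scale (standard error 0.12, limma adjusted p = 0.00984). The exact two-sided permutation test within diets gave p = 0.00408. Permutation p-values here and below are not adjusted for the number of members. The call on CON was kept when any 1 library was left out (adjusted p between 0.00128 and 0.0178). It was lost when only CON-pre and CON-post were fitted (adjusted p = 0.0520). The averaged call was lost in 1 of 14 alternative analyses, with the mean of endothelial markers as a covariate (0.41, adjusted p = 0.0677).

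Egln3, which encodes PHD3, lies on chromosome 12 from 54178981 to 54203874. Its FPKM was 5.94, 7.86, 7.45 and 6.52 in CON-pre and 13.2, 9.00, 13.0 and 9.76 in CON-post. On HFD it was 8.82, 5.03, 5.47 and 8.32 before and 14.5, 8.02, 8.81 and 7.63 after exercise. The CON groups did not overlap, whereas the HFD groups did, since the low HFD-post libraries fell within the HFD-pre range and HFD-post replicate 1 stood highest of all 16. The log2 fold change was 0.65 on CON (standard error 0.20, adjusted p = 0.183) and 0.46 on HFD (standard error 0.20, adjusted p = 0.384), and neither was called. Averaged over the diets Egln3 rose by 0.55 (standard error 0.14, limma adjusted p = 0.0424, exact permutation p = 0.00449). This call was lost in 6 of 14 alternative analyses (adjusted p up to 0.132) and in 10 of 16 fits that left out 1 library (CON-pre 1 to 4, HFD-pre 2 and 3, CON-post 1 and 3, HFD-post 1 and 3), with an adjusted p of up to 0.0950.

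Ddit4 encodes REDD1, which restrains mTORC1 through the TSC complex and is induced by hypoxia, energy stress and glucocorticoids. It lies on chromosome 10 from 59949675 to 59951770. Its FPKM was 2.41, 1.57, 4.31 and 6.46 in CON-pre, 11.8, 2.94, 3.93 and 28.0 in CON-post, 3.44, 8.05, 9.19 and 3.06 in HFD-pre and 13.8, 5.23, 6.16 and 9.25 in HFD-post. CON-post alone spanned 2.94 to 28.0 FPKM, and all groups overlapped. Exercise averaged over the diets gave the largest log2 difference of the 10 members, 0.87, but with a standard error of 0.40 and an adjusted p of 0.265 by limma (exact permutation p = 0.0763). Without CON-post replicate 4, the library at 28.0 FPKM, the difference of Ddit4 was 0.58 without a call and that of Cited2, at 0.67, was the larger.

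The windows upstream of the start sites of Cited2, Egln3 and Ddit4, the members with the largest average exercise differences, are shown because all of them are textbook HIF targets and HIF elements contain the core ACGTG or GCGTG. Each window holds the 250 bases before the start site from RefSeq GRCm38.p6, written 5′ to 3′ on the strand of the gene, with either core on either strand in capitals. The Cited2 window is chr10:17722978-17723227 on the plus strand, the Egln3 window chr12:54203875-54204124 and the Ddit4 window chr10:59951771-59952020 on the minus strand.
Cited2: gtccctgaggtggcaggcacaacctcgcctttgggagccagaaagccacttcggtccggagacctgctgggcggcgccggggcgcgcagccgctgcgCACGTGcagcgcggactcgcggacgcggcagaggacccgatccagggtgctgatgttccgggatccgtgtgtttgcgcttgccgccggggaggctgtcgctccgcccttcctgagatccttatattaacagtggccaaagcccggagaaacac
Egln3: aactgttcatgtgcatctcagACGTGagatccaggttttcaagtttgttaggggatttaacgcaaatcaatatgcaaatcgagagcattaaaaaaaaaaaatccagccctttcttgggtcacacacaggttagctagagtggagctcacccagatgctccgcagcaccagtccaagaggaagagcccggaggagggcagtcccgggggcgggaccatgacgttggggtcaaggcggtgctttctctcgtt
Ddit4: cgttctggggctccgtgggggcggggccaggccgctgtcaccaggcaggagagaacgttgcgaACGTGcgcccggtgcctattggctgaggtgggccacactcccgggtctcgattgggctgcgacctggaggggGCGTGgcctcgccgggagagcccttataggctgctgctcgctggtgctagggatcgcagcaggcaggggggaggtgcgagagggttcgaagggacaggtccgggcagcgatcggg
In Cited2 the capitals mark the palindrome CACGTG (positions -153 and -152), which holds ACGTG on both strands and overlaps itself. Egln3 held 1 ACGTG at -229, and Ddit4 held ACGTG at -187 and GCGTG at -115. RefSeq windows were matched for 9 of the 10 members, and 7 of these 9 held at least 1 core. Windows not shown held cores as well, with 3 matches in Hif1a, 2 in Egln1, 1 in Arnt and 1 and 4 in the windows of Egln2. None of these members was called with averaged exercise, and Egln1 differed by 0.05 (limma adjusted p = 0.669). Over 32851 windows of the same length, 38.6% held either core, 16.6% ACGTG and 28.2% GCGTG. A match describes the letters of the window and not a bound site.

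Epas1 moved with both diet and exercise. Its FPKM was 23.5, 23.5, 22.2 and 24.2 in CON-pre, 32.0, 29.9, 27.8 and 29.1 in HFD-pre, 28.3, 26.8, 29.3 and 31.0 in CON-post and 38.8, 31.1, 31.8 and 30.7 in HFD-post. Every value of the other 3 groups lay above the CON-pre values. HFD-pre and CON-post, which share CON-pre as their reference, had log2 fold changes of 0.34 and 0.30 (standard error 0.08 each, limma adjusted p = 0.0861 and 0.0815), and neither was called. HFD-post was higher than CON-post by 0.19 and higher than HFD-pre by 0.15 (adjusted p = 0.690 and 0.474).

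Epas1 was called for both averaged effects. Of the 10 members, 6 had an unadjusted p under 0.05 with exercise averaged over the diets (18.5% of all genes), and 3 rose (3.86% of all genes were called, 2.95% upward), namely Cited2, Egln3 and Epas1, the last by 0.22 (standard error 0.05, adjusted p = 0.0304, exact permutation p = 0.00204). With diet averaged over pre and post, 3 of 10 had an unadjusted p under 0.05 (10.4% of all genes) and 1 was called (0.959% of all genes), again Epas1, which was higher on HFD by 0.27 (standard error 0.05, adjusted p = 0.0238). A permutation of the diet labels within pre and within post, added after the values were seen, gave an exact p of 0.000816 for Epas1. The exercise call of Epas1 was lost in 5 of 14 alternative analyses (adjusted p up to 0.156) and in 7 of 16 leave-one-out fits (CON-pre 1, 2 and 3, HFD-pre 2 and 3, CON-post 3 and 4, up to 0.0618). The diet call was lost in 2 of 14 (up to 0.0677) and in 5 of 16 (CON-pre 1 and 3, HFD-pre 1 and 2, CON-post 2, up to 0.0624).

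Epas1 is abundant in endothelium, and endothelial markers are given beside it. All 14 markers of an endothelial list lay above 0 in HFD-pre against CON-pre (39.6% of all genes, median log2 fold change 0.17). In CON-post against CON-pre 13 of 14 lay above 0 (48.3% of all genes, median 0.20), and none was called in either comparison. In HFD-post 8 of 14 lay above 0 against HFD-pre (59.3% of all genes, median 0.05), with Pecam1 called, where 0.542% of all genes were called. Against CON-post 7 of 14 lay above 0 (51.2% of all genes, median 0.01, none called). Their summed FPKM was 88.8 to 109 in CON-pre, 101 to 118 in HFD-pre, 104 to 132 in CON-post and 108 to 123 in HFD-post, and none was at 0 in any library. With exercise averaged over diets 11 of 14 lay above 0 (53.7% of all genes, median 0.10, lowest -0.17). Of the 14 markers 2 were called, both of which rose (3.86% of all genes were called, 2.95% upward). Of these Pecam1, the endothelial adhesion molecule, rose by 0.36 (adjusted p = 0.00141), and Cdh5, the endothelial cadherin, differed by -0.01 (adjusted p = 0.954). The endothelial guidance receptor Robo4, named after its values were seen, rose by 0.29 (adjusted p = 0.0216). With averaged diet 11 of 14 lay above 0 (43.4% of all genes) and none was called (median 0.10). Mural markers, of the smooth muscle cells and pericytes around vessels, lay above 0 in 7 of 7 cases in HFD-pre against CON-pre (median 0.18) and with averaged diet (median 0.12), none called, and in 6 of 7 with averaged exercise (median 0.21). Of these only Tagln, a smooth muscle actin-binding protein also named after its values were seen, was called with averaged exercise (3.86% of all genes). Tagln rose by 0.43 (adjusted p = 0.0215). The summed FPKM of the mural markers was 79.5 to 87.2 in CON-pre, 81.7 to 99.1 in HFD-pre, 89.7 to 110 in CON-post and 92.8 to 109 in HFD-post, and their part in the Epas1 values was not tested. With the mean of the endothelial markers as a covariate, the Epas1 differences were close to those above (0.26 for diet, limma adjusted p = 0.0495, and 0.22 for exercise, adjusted p = 0.0746), and Cited2 was 0.74 on CON (adjusted p = 0.0401) and 0.41 averaged over diets (adjusted p = 0.0677).

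Among the members, Hif1a was the lower alpha subunit. Its FPKM was 3.86, 4.15, 3.62 and 4.22 in CON-pre, 3.12, 3.30, 3.08 and 4.86 in HFD-pre, 5.06, 5.77, 5.27 and 3.89 in CON-post and 4.57, 5.34, 4.20 and 4.41 in HFD-post. In CON-post 3 of 4 libraries exceeded all CON-pre libraries, and in HFD-post all 4 exceeded 3 of the 4 HFD-pre libraries. The log2 fold change with exercise was 0.29 on CON and 0.34 on HFD (adjusted p = 0.431 and 0.314), and averaged over the diets 0.32 (standard error 0.09, limma adjusted p = 0.0719, exact permutation p = 0.00735). Without HFD-pre replicate 4, the only high library of its group, the averaged difference was 0.39 with an adjusted p of 0.0108, and without CON-post replicate 4 it was 0.37 with an adjusted p of 0.0324. In the other 14 of 16 leave-one-out fits it was not called, with an adjusted p of up to 0.143.

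As a share of the summed FPKM of both alpha subunits, Hif1a made up 14.5% ± 0.505 (SD, n = 4) in CON-pre, 10.8% ± 2.40 in HFD-pre, 14.8% ± 2.72 in CON-post and 12.4% ± 1.74 in HFD-post. A share within a library does not depend on how the library was scaled. HFD-pre differed from CON-pre by -3.73 points, which the exact permutation test did not separate (p = 0.0857, where 4 against 4 allow 0.0286 at the least). HFD-pre replicate 4 was at 14.3% and the other 3 HFD-pre libraries between 8.90 and 9.97%. With 1 library left out the difference was between -4.91 points (without replicate 4) and -3.11 points. The exact permutation p was then between 0.0286 and 0.114, and it fell under 0.05 in 1 of 8 such fits. The averaged exercise difference was 0.946 points (exact p = 0.349).

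Arnt, the shared partner, showed no called difference. It lay between 9.59 and 12.4 FPKM in all 16 libraries, with group means of 10.9 ± 0.588 (SD, n = 4) in CON-pre, 11.2 ± 0.844 in HFD-pre, 11.6 ± 0.935 in CON-post and 11.0 ± 1.07 in HFD-post. Its averaged exercise difference was 0.03 on the log2 scale, with a 95% interval from -0.10 to 0.16 (limma adjusted p = 0.835), and its sign changed with upper-quartile and quantile scaling.

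**Figure D2:**
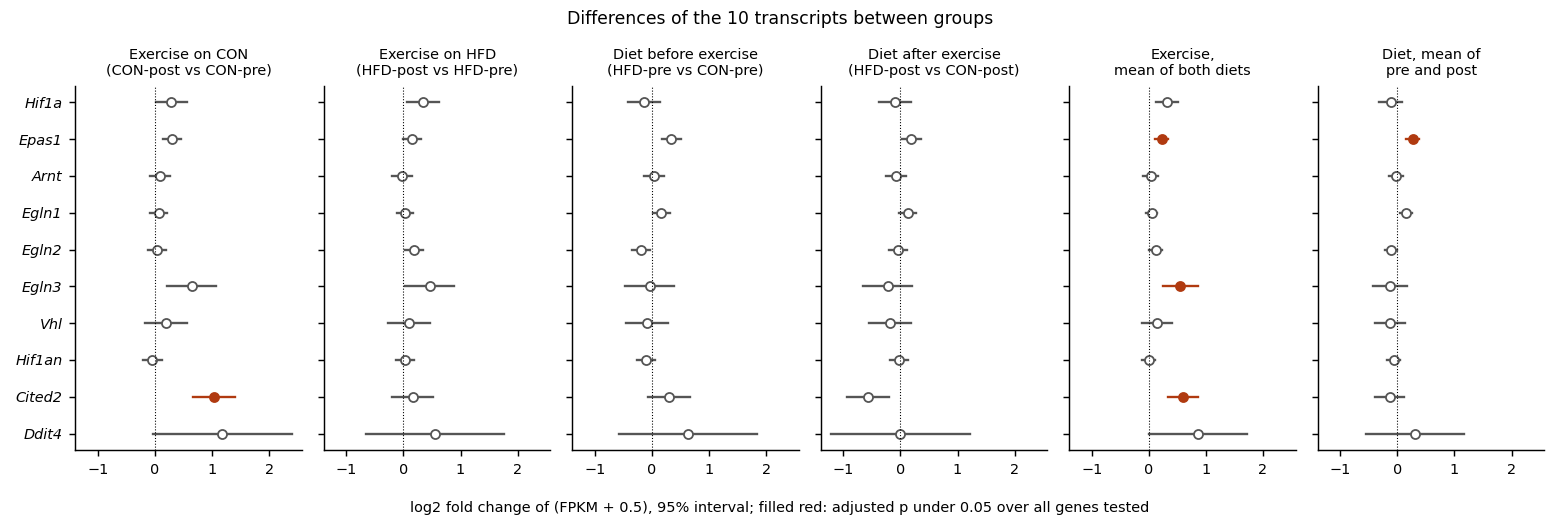
Log2 fold changes of FPKM + 0.5 with 95% intervals for each transcript in the 4 group comparisons and the averaged exercise and diet effects, with filled red points for a limma adjusted p under 0.05 over all genes. The red points are Cited2 for exercise on CON (1.03), Epas1, Egln3 and Cited2 for averaged exercise (0.22, 0.55 and 0.60) and Epas1 for averaged diet (0.27).

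Diet before exercise gave no called member. Of the 10, 0 were called by limma between HFD-pre and CON-pre (0.346% of all genes), 3 had an unadjusted p under 0.05 (8.25% of all genes), and 4 did not overlap (5.62% of all genes). Those 4 were Epas1 and Egln1, higher on HFD, and Egln2 and Hif1an, lower on HFD. The median over the members was -0.00, and over all genes -0.03.

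Egln1 encodes PHD2, the main oxygen sensor of the family. It was 60.7, 61.0, 63.2 and 63.0 FPKM in CON-pre and 73.5, 68.1, 70.3 and 66.9 FPKM in HFD-pre, which was 0.17 higher on the log2 scale (standard error 0.07, limma adjusted p = 0.520). After exercise it was 62.6, 60.8, 65.0 and 71.3 FPKM on CON and 75.7, 63.0, 69.2 and 76.9 FPKM on HFD, and these groups overlapped. The diet difference averaged over pre and post was 0.15 (standard error 0.05, adjusted p = 0.224), and its exact permutation p, added after the values were seen, was 0.00735. The same diet permutation gave p = 0.0453 for Egln2 and between 0.222 and 0.687 for the 7 members other than Epas1, Egln1 and Egln2, none of them adjusted for the number of members. With exercise Egln1 differed by 0.05 on average, with a 95% interval from -0.06 to 0.15, and by -0.021 with quantile scaling.

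Egln2 encodes PHD1. It was 30.8, 30.3, 32.7 and 32.8 FPKM in CON-pre and 28.4, 27.4, 27.7 and 27.6 FPKM in HFD-pre, with a log2 difference of -0.19 (standard error 0.07, limma adjusted p = 0.488). After exercise it was 30.2, 38.1, 30.7 and 32.1 FPKM on CON and 29.4, 33.5, 30.4 and 33.9 FPKM on HFD. All 4 HFD-post values lay above the 4 HFD-pre values, at 0.19 (adjusted p = 0.327). Egln2 was the only member without overlap in that comparison (6.81% of all genes). Averaged over the diets, its exercise difference was 0.12 (limma adjusted p = 0.245, exact permutation p = 0.0429). The permutation p exceeded 0.05 in 10 of 16 leave-one-out fits (up to 0.0988). On HFD 0 of 10 members were called with exercise by limma (0.542% of all genes), 3 had an unadjusted p under 0.05 (11.7% of all genes), and 9 of 10 lay above 0 with a median of 0.16, where all genes had 0.04.

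The ratio of Egln1 to Egln2 within a library, looked at after these values were seen and therefore not tested, was 1.92 to 2.01 in CON-pre and 2.42 to 2.59 in HFD-pre. After exercise it was 1.60 to 2.22 on CON and 1.88 to 2.58 on HFD, so the separation seen at rest was not present in the exercised mice. The summed FPKM of the 3 hydroxylases was 101 ± 2.77 (SD, n = 4) in CON-pre, 104 ± 4.39 in HFD-pre, 109 ± 3.05 in CON-post and 113 ± 7.42 in HFD-post.

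Egln3 contributed the smallest share of that sum. It was 6.90% ± 0.827 in CON-pre and 10.3% ± 2.15 in CON-post, and the 4 CON-post shares (8.34 to 12.5%) all exceeded the CON-pre shares (6.10 to 7.92%). The difference of 3.44 points had an exact two-sided permutation p of 0.0286, the smallest that 4 against 4 allow. With 1 library left out its exact p was between 0.0286 and 0.0857, and it exceeded 0.05 without any single CON-pre library. On HFD the share was 6.59% ± 1.67 before and 8.59% ± 2.46 after exercise, a difference of 2.00 points (exact p = 0.229), and averaged over diets the difference was 2.72 points (exact p = 0.0102).

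**Figure D3:**
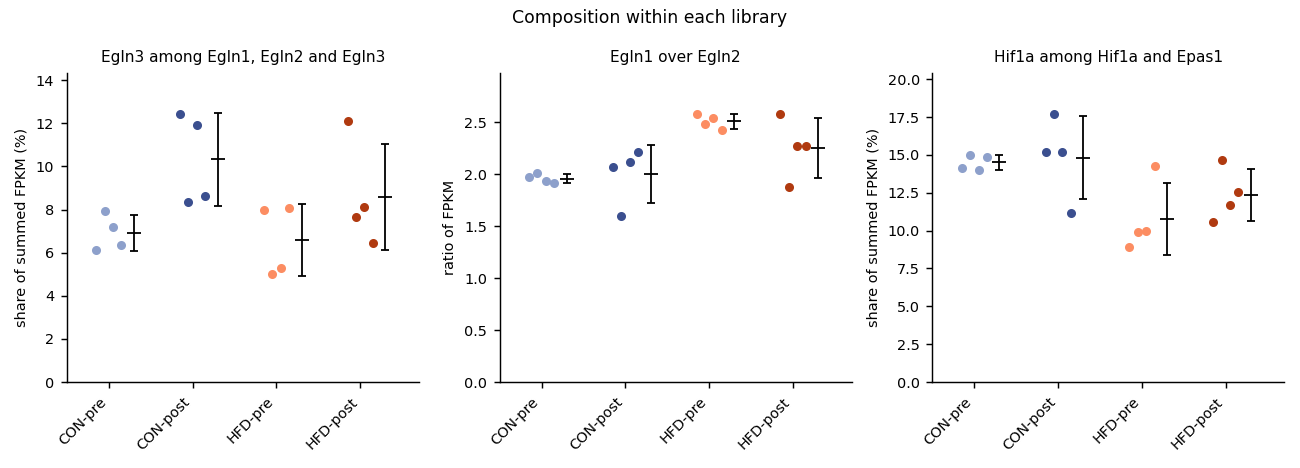
Shares and ratios of FPKM within each library (points, 1 mouse each; 4 per group) with the group mean and SD at the right. Egln3 took 6.10 to 7.92% of the summed hydroxylase FPKM in CON-pre and 8.34 to 12.5% in CON-post, and the ratio of Egln1 to Egln2 was 1.92 to 2.01 in CON-pre and 2.42 to 2.59 in HFD-pre.

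Hif1an and Vhl were not called in any comparison. Hif1an was 42.2, 43.7, 41.2 and 41.3 FPKM in CON-pre and 40.8, 37.0, 40.5 and 39.0 FPKM in HFD-pre, which did not overlap, with a log2 difference of -0.10 (standard error 0.08, limma adjusted p = 0.810). After exercise it ranged from 35.5 to 46.5 FPKM on CON and from 36.4 to 42.5 FPKM on HFD. The averaged exercise difference was -0.01 with a 95% interval from -0.12 to 0.11, and its sign changed with the scaling of the libraries. Vhl was 1.19 to 2.08 FPKM in CON-pre, 1.26 to 2.22 in HFD-pre, 1.45 to 2.43 in CON-post and 1.37 to 2.07 in HFD-post, so at its low level all groups overlapped.

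After exercise, diet gave 0 called members by limma (0.151% of all genes) and 2 with an unadjusted p under 0.05 (6.29% of all genes), which were Cited2 and Epas1. Only Cited2 did not overlap (3.16% of all genes), and it was the lower on HFD. Of the 10 members 3 lay above 0, with a median of -0.06 where all genes had 0.00.

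The 3 genes whose log2 values followed each called member most closely over the 16 libraries are given as a description. The libraries share their groups, so part of each correlation is the group pattern. For Epas1 they were Slc25a20, the mitochondrial carnitine-acylcarnitine carrier (Pearson r = 0.892), Etfdh, an electron-transfer dehydrogenase of fatty acid oxidation (r = 0.887), and Ogdh, a subunit of the 2-oxoglutarate dehydrogenase of the citric acid cycle (r = 0.881). For Egln3 they were Slc23a2, a vitamin C transporter (r = 0.840), Maff, a small MAF transcription factor (r = 0.825), and Ank (r = 0.824). For Cited2 they were Myh10, a non-muscle myosin heavy chain (r = 0.877), Mrpl4, a mitochondrial ribosomal protein (r = 0.866), and Gm10638 (r = 0.853). Within groups, after subtracting group means, these correlations were between 0.593 and 0.823. The genes were picked for their high r over the same 16 libraries, so these values are no separate check.

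Of 38 listed genes that HIF is known to induce 35 were tested. With exercise averaged over diets 25 of 35 lay above 0, 5 rose and 2 fell, and the median log2 fold change was 0.05. Of all genes 53.7% lay above 0 and 3.86% were called (2.95% upward), with a median of 0.01. Hexokinase 2 (Hk2), which traps glucose in the cell, rose from 52.9 ± 3.55 to 111 ± 18.6 FPKM on CON and from 48.6 ± 1.91 to 109 ± 15.3 FPKM on HFD (SD, n = 4), and its averaged log2 fold change was 1.10 (adjusted p = 1.06e-06). The lipase inhibitor Angptl4 rose by 0.70, the mitophagy receptor Bnip3 by 0.42, the fructose bisphosphate regulator Pfkfb4 by 0.32 and the nuclear receptor Rora by 0.29. Pfkfb3, its glycolytic relative, fell by 0.95, and the transcriptional repressor Bhlhe40 by 0.46.

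Further textbook targets were not called. Vegfa, the endothelial growth factor, was 54.4 ± 4.10 FPKM in CON-pre and 63.3 ± 3.09 FPKM in CON-post, with an averaged difference of 0.17 (limma adjusted p = 0.0975). The glucose transporter Slc2a1 differed by 0.28 (adjusted p = 0.199), the pyruvate dehydrogenase kinase Pdk1 by 0.02 (adjusted p = 0.917) and Ankrd37 by -0.06 (adjusted p = 0.912). Car9 and Eno1 were under the level tested, and Epo was listed at 0 in all libraries. With averaged diet, where 0.959% of all genes were called, Gapdh was the 1 called gene of the 35, lower on HFD by 0.26 (log2 fold change -0.26, adjusted p = 0.0427).

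Of 22 other genes of the HIF machinery 20 were tested, and only Gnb2l1, which encodes the scaffold RACK1, was called, with a rise of 0.17 with averaged exercise (limma adjusted p = 0.0307), where 3.86% of all genes were called. The co-activators for which CITED2 and HIF compete differed little, Ep300 by -0.06 (adjusted p = 0.563) and Crebbp by -0.06 (adjusted p = 0.691). Cited4, a relative of Cited2, differed in the other direction at -0.59 without a call (adjusted p = 0.0806), with 8.05 ± 2.19 FPKM in CON-pre, 5.13 ± 2.67 in CON-post, 6.20 ± 1.27 in HFD-pre and 4.24 ± 0.972 in HFD-post (SD, n = 4). Hif3a was under the level tested, with at most 0.583 FPKM.

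Ddit4 was also set beside the TSC and mTORC1 genes, where 15 of 15 were tested. Averaged over diets 2 rose and 1 fell with exercise (3.86% of all genes were called), with a median of 0.01, where all genes also had 0.01. Ddit4l, the REDD2 paralogue of Ddit4, fell by 0.75 on the log2 scale (limma adjusted p = 0.000784), from 68.7 ± 11.2 to 36.9 ± 1.19 FPKM on CON and from 55.4 ± 6.31 to 36.5 ± 11.4 FPKM on HFD (SD, n = 4). The translation repressor Eif4ebp1 rose by 0.75 (adjusted p = 0.000870) and the stress-induced Sesn1 by 0.40 (adjusted p = 0.0399), whereas Tsc2 differed by 0.04 (adjusted p = 0.757) and the thioredoxin inhibitor Txnip by 0.27 (adjusted p = 0.139).

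Genes known to be induced by glucocorticoids, as Ddit4 is, were listed as well. This list was chosen with earlier results of these data known, so its counts are a description and not a test. All 18 were tested, 17 lay above 0 with exercise averaged over diets (53.7% of all genes), and 7 were called, all of which rose (2.95% of all genes were called upward). Their median was 0.47, where all genes had 0.01. They were the metallothioneins Mt2 (1.76) and Mt1 (1.46), which are similar enough for reads to be shared, the muscle ubiquitin ligases Trim63 (1.12) and Fbxo32 (0.56), the chaperone Fkbp5 (1.00), the transcription factor Foxo1 (0.70) and the cell-cycle inhibitor Cdkn1a (0.56). The other 11 were not called, among them Tsc22d3 at 0.09 (limma adjusted p = 0.734) and the clock gene Per1 at -0.07 (adjusted p = 0.910). With averaged diet 1 of the 18 was called, Mt1, lower on HFD (log2 fold change -0.70, adjusted p = 0.0492), where 0.959% of all genes were called. Corticosterone is not analysed here, and its part in the Ddit4 values was not tested.

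**Figure D4:**
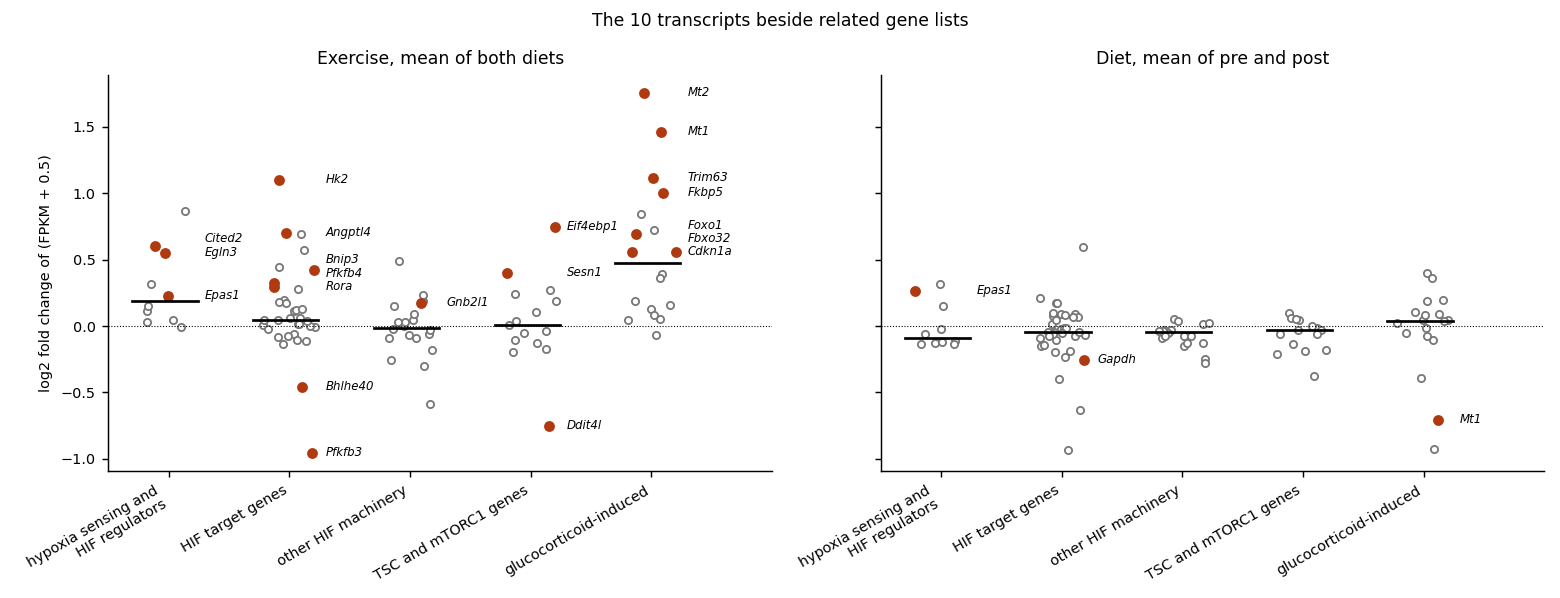
Log2 fold changes of FPKM + 0.5 for exercise averaged over diets (left) and diet averaged over pre and post (right) for the 10 transcripts and 4 lists of related genes, with medians as bars and genes at a limma adjusted p under 0.05 in red with their names. With exercise the medians are 0.19 for the 10 transcripts, 0.05 for HIF targets and 0.47 for glucocorticoid-induced genes.

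Slow fibres and cells outside the vessel wall were followed by their markers. The summed FPKM of 8 slow-fibre markers lay between 212 and 726 in CON-pre and between 198 and 525 in HFD-pre, and all 8 lay below 0 in HFD-pre against CON-pre (median log2 fold change -0.54). After exercise the sum was 192 to 720 FPKM on CON and 194 to 760 FPKM on HFD. All 8 lay above 0 in HFD-post against HFD-pre (median 0.26) and with averaged exercise (0.16), and all 8 below 0 in HFD-post against CON-post (-0.33) and with averaged diet (-0.44), and none was called in any of these comparisons. With the slow-fibre score as a covariate, Epas1 was higher on HFD averaged over pre and post by 0.29 (limma adjusted p = 0.0152). With averaged exercise Epas1 was higher by 0.22 (adjusted p = 0.0326). Cited2 on CON was higher after exercise by 1.03 (adjusted p = 0.00526). The score is the mean of these markers, which lay below 0 with averaged diet, so this fit cannot tell slow fibres and diet apart. With averaged diet 8 of 9 fast-fibre markers lay below 0 (median -0.16) and 7 of 8 myofibre markers (median -0.12), none called. With averaged exercise 6 of 9 fast-fibre markers (median -0.05) and 5 of 8 myofibre markers (median -0.04) lay below 0. In each list 1 was called with averaged exercise (3.86% of all genes), named here after its values were seen. The fast myosin light chain Myl1 fell by 0.31 (adjusted p = 0.00948), and by 0.39 on CON (adjusted p = 0.0397), and the intermediate filament desmin (Des) rose by 0.23 (adjusted p = 0.0322). Adipocyte markers summed to 372 to 476 FPKM in CON-pre, 375 to 563 in CON-post, 321 to 415 in HFD-pre and 339 to 659 in HFD-post. All 7 lay above 0 in HFD-post against HFD-pre (median 0.47) and with averaged exercise (0.29), none called. With averaged diet 1 rose and 1 fell, where 0.959% of all genes were called. Macrophage markers summed to 66.2 to 115 FPKM in CON-pre, 53.7 to 133 in CON-post, 61.0 to 79.6 in HFD-pre and 49.2 to 98.3 in HFD-post, and all 8 tested lay below 0 with averaged diet (median -0.16, none called). Blood markers summed to 380 to 839 FPKM in CON-pre, 336 to 483 in CON-post, 259 to 482 in HFD-pre and 316 to 903 in HFD-post, with none called. All 7 fibroblast markers lay below 0 with averaged diet (median -0.08) and 6 of 7 with averaged exercise (median -0.12), none called. The part of the fibre types and of these cells in the results was not tested.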

How the data were processed

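Polyadenylated RNA of 16 quadriceps samples was sequenced from stranded libraries. The authors aligned reads with TopHat, estimated expression with Cufflinks and deposited it as FPKM, already scaled for length and library size. Tool versions are not given in the sources used here. The labels name mm9, but the loci listed by the authors for 4 members overlapped GRCm38 in 4 of 4 cases and mm9 in 0, so positions are from RefSeq GRCm38.p6. Of 24487 entries, 27 with date-like names (0.0771% of FPKM) were left out, and 260 repeated symbols were summed (0 of them members).

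The limma 3.58.1 fit in R 4.3.3 took log2(FPKM + 0.5) of genes averaging 0.5 FPKM or more, used limma's trend option and had no covariates. Averaged effects are means of both within-diet or within-time contrasts. Single values were tested by exact two-sided permutation within diets or within times (4900 relabellings, smallest p = 0.000408). On simulated data for CON-post against CON-pre (11256 genes), 88 of 97 genes changed by 1 on the log2 scale were called, and 5 unchanged genes. Replicates are separate mice.

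The members and lists were chosen with earlier results of these data known. Named were all members, called genes of the 4 related lists, 4 textbook genes a list, some cell markers and the 3 genes most like each called member. One gene was taken off the list of HIF-induced genes after the fit for a reason unrelated to its values and is not reported here, and that list is counted without it. Alternatives covered pseudocount, filter, scaling, trend, weights, covariates, replicate block, 2-group fits, threshold and each library left out. Figures used Python 3.11.15 with matplotlib 3.10.9.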

Additional observations from a re-analysis of the deposited data

Results flagged for a closer look

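In 48 groups of 4 libraries (the 10 transcripts and 2 shares in 4 groups), 3 held a library far from the others of its group, where chance alone marks about 1 group in 20. HFD-pre replicate 4 had 4.86 FPKM of Hif1a, against 3.08 to 3.30 FPKM in the other 3 HFD-pre libraries. The same library had 2.22 FPKM of Vhl, against 1.26 to 1.41 FPKM. HFD-post replicate 1 had 38.8 FPKM of Epas1, against 30.7 to 31.8 FPKM in the other 3 HFD-post libraries. Without it Epas1 was called in HFD-pre against CON-pre (limma adjusted p = 0.0197) and in CON-post against CON-pre (adjusted p = 0.0235). Neither comparison holds this library, so the log2 differences of 0.34 and 0.30 stayed the same. What changed in the fit of Epas1 was the estimate of the spread that all groups share.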

How the results depend on the processing

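Cited2 on CON was called in all alternatives except the fit of CON-pre and CON-post alone (adjusted p between 0.00192 and 0.0520). The averaged exercise call of Cited2 was lost with the endothelial covariate (adjusted p = 0.0677). That of Egln3 was lost without a filter, with upper-quartile, quantile or median-of-ratios scaling, without the trend, with the endothelial covariate (adjusted p between 0.0510 and 0.132) and in 10 of 16 leave-one-out fits. Epas1 lost its exercise call with every other scaling and the endothelial covariate (adjusted p between 0.0587 and 0.156) and its diet call with upper-quartile and median-of-ratios scaling (0.0677 and 0.0610). Epas1 in HFD-pre and in CON-post against CON-pre was called with array weights (0.0289 and 0.0352), and averaged Hif1a after exercise with array weights or equal FPKM totals (0.0392 and 0.0466). The causes were not tested. The files hold no read totals per library, so no counting error of low transcripts such as Vhl is given. The within-group SD of log2 values was 0.26 for Vhl and 0.93, the highest of the members, for Ddit4.

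Gene counts moved as follows. HFD-pre against CON-pre gave 39 genes, 63 with array weights, 62 with the slow-fibre covariate, 62 at an adjusted p under 0.1 and 21 to 43 with 1 library left out. CON-post against CON-pre gave 125, 213 with the endothelial covariate, 72 with only these groups, 208 at the looser threshold and 88 to 190 with 1 library left out. HFD-post against HFD-pre gave 61, 37 without a filter, 93 at the looser threshold and 21 to 79 with 1 library left out. HFD-post against CON-post gave 17, 33 with the slow-fibre covariate, 2 with only these groups, 30 at the looser threshold and 5 to 16 with 1 library left out. Averaged exercise gave 435, 779 at the looser threshold and 246 to 565 with 1 library left out, and its upward share was 76.3%, but 48.0% with upper-quartile, 63.7% with median-of-ratios, 54.2% with quantile scaling and 54.2% with the endothelial covariate. Averaged diet gave 108, 193 with the slow-fibre covariate and 178 at the looser threshold, with 50.9% upward, but 78.6% with equal FPKM totals, 34.7% with the slow-fibre covariate and 43.0% with the endothelial covariate. The interaction gave 0, and 0 to 1 with 1 library left out.

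The sign changed in 29 uncalled values. Averaged exercise became -0.0068 (upper-quartile) and -0.011 (quantile) for Arnt, -0.021 (quantile) for Egln1, -0.059 (endothelial covariate) for Vhl and 0.0074, 0.00690 and 0.0063 for Hif1an (equal totals, array weights and slow-fibre covariate). Averaged diet became 0.042 (equal totals) and 0.013 (endothelial covariate) for Arnt and 0.0061 (equal totals) for Hif1an. HFD-post against HFD-pre became -0.0104, -0.0120 and -0.0611 for Egln1 and -0.0063, -0.0080 and -0.0344 for Hif1an under upper-quartile, then median-of-ratios, then quantile scaling. CON-post against CON-pre became -0.0021 for Egln2 and -0.13 for Vhl with the endothelial covariate. HFD-pre against CON-pre became 0.043, 0.0025 and 0.065 for Egln3 with equal totals, median-of-ratios scaling and the slow-fibre covariate. HFD-post against CON-post became 0.0078 for Egln2 and 0.025 for Hif1an with equal totals, and for Ddit4 -0.021 with a pseudocount of 1, -0.0026 and -0.0061 with upper-quartile and median-of-ratios scaling and -0.039 with array weights. The Vhl interaction became 0.040 with array weights and 0.13 with the endothelial covariate.

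With 1 library left out, the log2 differences that changed sign ranged from -0.050 to 0.19 (Hif1a interaction), -0.071 to 0.036 (Arnt on HFD), -0.048 to 0.0083 (Arnt diet), -0.010 to 0.085 and -0.075 to 0.020 (Egln1 on HFD and interaction), -0.030 to 0.080 and -0.076 to 0.034 (Egln2 on CON and after exercise), -0.16 to 0.091 (Egln3 at rest), -0.24 to 0.0050 and -0.20 to 0.054 (Vhl at rest and interaction), -0.11 to 0.022, -0.089 to 0.039 and -0.037 to 0.027 (Hif1an on CON, after exercise and averaged exercise) and -0.44 to 0.58 (Ddit4 after exercise). The exact permutation p of averaged exercise moved across 0.05 for Egln2 (0.0180 to 0.0988, log2 difference 0.080 to 0.13). It also did for Ddit4 (0.040 to 0.16, log2 difference 0.58 to 1.08). The Egln3 share difference was 2.73 to 4.10 points on CON and -0.814 to 0.216 points for diet at rest, and the Hif1a share difference -4.91 to -3.11 points for diet at rest and -0.655 to 1.53 points on CON. A test of 3 against 4 allows no p under 0.0286.

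Replicate numbers are only shared names. Over 24 pairs of libraries with the same number the correlation of deviations was between -0.220 and 0.213, 5 exceeded 0.1, and 6 were the best match of their library. With the number as a replicate block, Cited2 on CON was 1.03 (adjusted p = 0.00836), and the block gave 32, 116, 42, 17, 0, 328 and 87 genes in the 7 contrasts and changed no call of a member.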
